A study of Mus musculus with 21 samples.

Results

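The 7 genes described here belong to the Notch pathway as it is known from arterial endothelium: the receptors Notch1 and Notch4, the ligands Dll4 and Jag1, the glycosyltransferase Lfng, and the transcriptional targets Hey1 and Hey2. They were taken by name out of 21887 protein-coding genes. Their data were all peaks that lay inside a gene body or within 50 kb of it on mm10 (GRCm38), a stretch called the window of the gene. Distances are given from the gene start to the centre of a region inside the gene, and from the gene boundary to the nearest edge of a region outside it. After overlapping peaks of one assay were joined, the windows held 50 of 51264 ATAC-seq regions and 4 of 4548 ChIP-seq regions. The input control, chromatin sequenced without antibody, was 1 library from cells without doxycycline, and it had 0 peaks in the windows. No input from cells given doxycycline was among the samples.

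The series asked how Sox7, a SOXF-group transcription factor of the endothelium, acts on cardiovascular progenitors. All samples were embryoid bodies, floating aggregates of differentiating cells, collected at day 4 of differentiation. They were grown from A2lox-Sox7-Myc cells, an engineered mouse embryonic stem cell line whose parent is E14Tg2a. Every sample therefore carried the doxycycline-inducible transgene for Myc-tagged Sox7, and induced samples had received 1 µg/ml doxycycline for 24 h, while uninduced samples had received none. ATAC-seq, which reads open chromatin through transposase insertion, covered induced and uninduced EPC (PDGFRα−FLK1+ cells, endothelial progenitors in the design text) and induced and uninduced CPC (PDGFRα+FLK1+ cells, cardiac progenitors), with 2 libraries in each of these groups. Anti-Myc ChIP-seq was done on unsorted cells, with 4 induced and 4 uninduced lists. Uninduced ChIP lists 2 and 4 shared 585 peak starts, which is 75.8% of the 772 in list 4, the shorter one. In any other pair of ChIP or input lists the share of the shorter list was at most 1.04%. Lists 2 and 4 were therefore counted as 1 library, and the comparison was 4 induced against 3 uninduced libraries. All cells came from 1 engineered line, and the transgene, not the native gene, supplied the extra Sox7.

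In Notch signalling, a ligand on one cell activates a receptor on its neighbour, the cleaved inner part of the receptor enters the nucleus, and there it joins the DNA-binding protein RBPJ to switch on targets such as the Hey genes. Fringe enzymes such as Lfng add sugars to the receptors and so alter which ligands they answer to. In the developing vessels of mouse and zebrafish the pathway is known for specifying arteries, and SOXF factors are known there as regulators of Notch1 and Dll4.

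The sorted cells carried the marks of their labels only in part. Over the bodies of 10 endothelial markers, ATAC peaks summed to 15 and 15 in induced EPC, 18 and 12 in uninduced EPC, 8 and 8 in induced CPC and 7 and 5 in uninduced CPC. Cdh5, the endothelial cadherin, had 1 or 2 peaks in every EPC library and 0 or 1 in CPC libraries, whereas Emcn had 0 in all 4 EPC libraries. Summed peaks over 8 blood markers also ran higher, at 16 to 21 in EPC and 10 to 15 in CPC. Over 9 arterial markers the ranges overlapped, at 10 to 18 in EPC and 13 to 16 in CPC, and Gja5 had no peak in any library. Over 8 cardiac markers they were 6 to 10 in EPC and 8 to 12 in CPC, with Nkx2-5 and Myl7 at 0 throughout. Tnnt2 had 2 and 2 peaks in induced CPC and 3 and 1 in uninduced CPC. In EPC it had 0 and 2 with induction and 0 and 0 without it. Tbx5 went the other way, with 1 peak in every EPC library and 0 or 1 in CPC libraries. Inside Sox7 itself a region was present in 4 of 4 induced and 0 of 4 uninduced ATAC libraries; reads of the transgene and of the native gene cannot be told apart there. The ATAC lists held 23068 to 30732 peaks, the ChIP lists 772 to 2807, and the read depth behind them is unknown. A missing peak can thus mean a shallower library as well as closed or unbound chromatin.

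The promoters are shown first, because peaks over them separated one receptor from the other members. RefSeq promoter windows (GRCm38.p6, 250 bases before to 50 after the start) matched 6 of the 7 genes, all but Hey1. In the following 4 sequences, written 5′ to 3′ on the strand of the gene, capitals mark CpG dinucleotides, the sites at which mammalian DNA is methylated.
Notch1 (chr2:26503773-26504072, minus strand): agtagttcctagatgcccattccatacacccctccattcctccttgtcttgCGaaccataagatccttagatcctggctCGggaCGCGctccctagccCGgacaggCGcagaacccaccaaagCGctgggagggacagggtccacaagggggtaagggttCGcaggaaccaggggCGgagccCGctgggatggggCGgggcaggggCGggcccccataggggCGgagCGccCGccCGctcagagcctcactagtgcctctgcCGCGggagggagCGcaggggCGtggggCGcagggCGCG
Notch4 (chr17:34564045-34564344, plus strand): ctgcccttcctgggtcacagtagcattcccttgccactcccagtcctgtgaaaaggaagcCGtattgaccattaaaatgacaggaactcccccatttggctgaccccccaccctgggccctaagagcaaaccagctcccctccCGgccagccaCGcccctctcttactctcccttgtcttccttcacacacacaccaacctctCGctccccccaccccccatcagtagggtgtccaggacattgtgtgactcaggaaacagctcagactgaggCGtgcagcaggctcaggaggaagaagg
Dll4 (chr2:119325534-119325833, plus strand): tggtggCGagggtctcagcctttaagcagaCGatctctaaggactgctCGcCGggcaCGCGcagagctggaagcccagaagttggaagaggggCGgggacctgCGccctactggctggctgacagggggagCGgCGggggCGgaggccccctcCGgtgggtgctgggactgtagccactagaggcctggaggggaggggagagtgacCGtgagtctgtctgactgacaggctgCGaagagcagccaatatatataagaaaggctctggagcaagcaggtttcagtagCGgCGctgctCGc
Jag1 (chr2:137116471-137116770, minus strand): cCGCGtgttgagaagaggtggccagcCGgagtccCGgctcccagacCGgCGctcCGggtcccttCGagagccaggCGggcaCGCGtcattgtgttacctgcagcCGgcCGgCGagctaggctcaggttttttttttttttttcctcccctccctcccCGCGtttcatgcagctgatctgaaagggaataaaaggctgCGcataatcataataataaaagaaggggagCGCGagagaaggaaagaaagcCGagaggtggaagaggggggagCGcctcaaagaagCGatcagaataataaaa

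The Notch4 promoter held 5 CpG and had an ATAC peak in 0 of 8 libraries. The Notch1 promoter held 23 CpG, the Jag1 promoter 22 and the Dll4 promoter 17, and each had a peak in 8 of 8 libraries. Hey2, with 29 CpG, and Lfng, with 22, also had one in 8 of 8. Notch4 thus stood alone among the 6 members in lacking a promoter peak and in its low CpG number. This is common for promoters with so few CpG. Of 21263 mouse promoters, 32.3% held 5 or fewer CpG, and of those 88.9% had a peak in 0 libraries and 3.65% in all 8. Over all promoters, 41.1% had a peak in all 8 libraries and 41.1% in none, with a median of 22 CpG in the first set and 3 in the second.

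**Figure D1:**
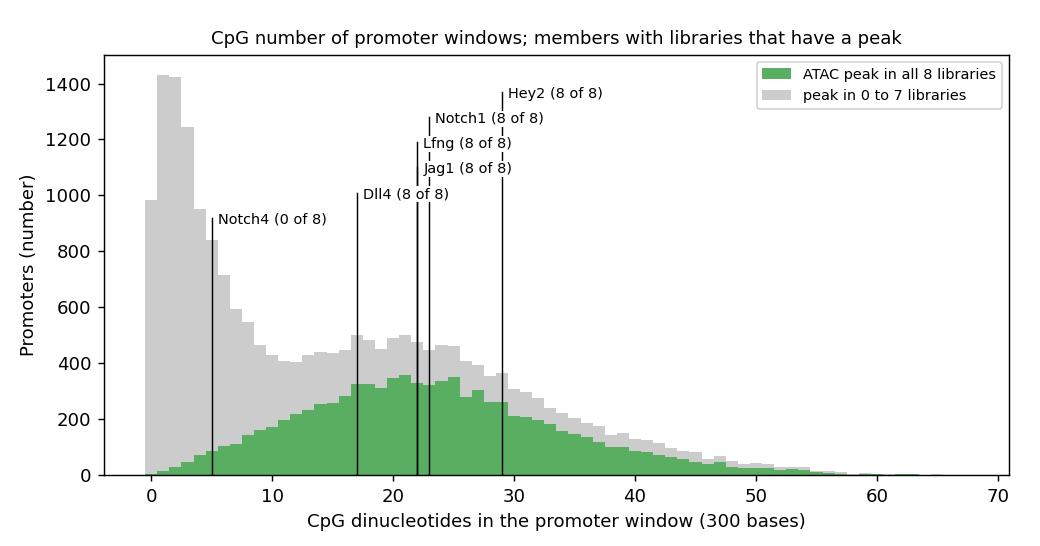
Number of RefSeq promoter windows (y axis) by the number of CpG dinucleotides in the 300-base window (x axis). Green bars count promoters with an ATAC peak in all 8 libraries and grey bars those with a peak in 0 to 7; vertical lines mark the 6 members, with Notch4 at 5 CpG and 0 of 8 libraries and the others at 17 to 29 CpG and 8 of 8.

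The 2 other promoters are shown because they hold the letters of the pathway's own factor. Capitals mark TGGGAA, the core of the RBPJ motif, and CACGTG, an E-box bound by HEY and HES repressors, both searched on both strands.
Hey2 (chr10:30842734-30843033, minus strand): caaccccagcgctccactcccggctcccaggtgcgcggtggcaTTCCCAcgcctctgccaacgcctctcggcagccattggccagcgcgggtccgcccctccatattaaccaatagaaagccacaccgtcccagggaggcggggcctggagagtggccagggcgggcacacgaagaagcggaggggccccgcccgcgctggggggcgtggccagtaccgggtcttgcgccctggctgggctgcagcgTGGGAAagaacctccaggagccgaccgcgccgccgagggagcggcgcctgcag
Lfng (chr5:140607091-140607390, plus strand): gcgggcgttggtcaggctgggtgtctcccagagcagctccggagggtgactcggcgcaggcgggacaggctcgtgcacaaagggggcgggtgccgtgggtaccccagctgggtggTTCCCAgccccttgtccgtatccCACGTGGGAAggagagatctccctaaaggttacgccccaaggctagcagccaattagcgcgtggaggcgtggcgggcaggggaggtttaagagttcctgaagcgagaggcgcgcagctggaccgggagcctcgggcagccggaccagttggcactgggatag

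In the Hey2 promoter TGGGAA lay at −207 to −202, on the reverse strand as TTCCCA, and at −3 to 2 on the forward strand, counted from the start. In the Lfng promoter it lay at −135 to −130 on the reverse strand and at −108 to −103 on the forward strand, and the second copy overlapped the E-box at −112 to −107. Lfng also held ACAAAG, a core shared by SOX and TCF factors, at −174 to −169. The other motifs searched on both strands were AACAAT for SOX factors, CCGGAA for ETS factors and AGATAA for GATA factors. The Notch1, Notch4, Dll4 and Jag1 windows held none of the motifs searched, and Hey2 and Lfng none but those named. Such letters are frequent. The RBPJ core was present in 24.5% of all promoters, the core shared by SOX and TCF factors in 16.8%, the E-box in 7.84%, the SOX core in 9.05%, the ETS core in 18.7% and the GATA core in 9.65%. A match is only a match of letters.

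Across the 50 ATAC regions, 21 had a peak in all 8 libraries, which is 42.0%, against 25.5% of all regions. A further 12 were found in 1 library only (24.0%, against 26.7% of all regions) and 17 in 2 to 7 libraries. Of the 50, 18 overlapped a member gene and 32 lay outside; 23 were nearer to another gene than to the member, so that a region in a window need not belong to the member. The map of all windows shows these regions by library.

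**Figure D2:**
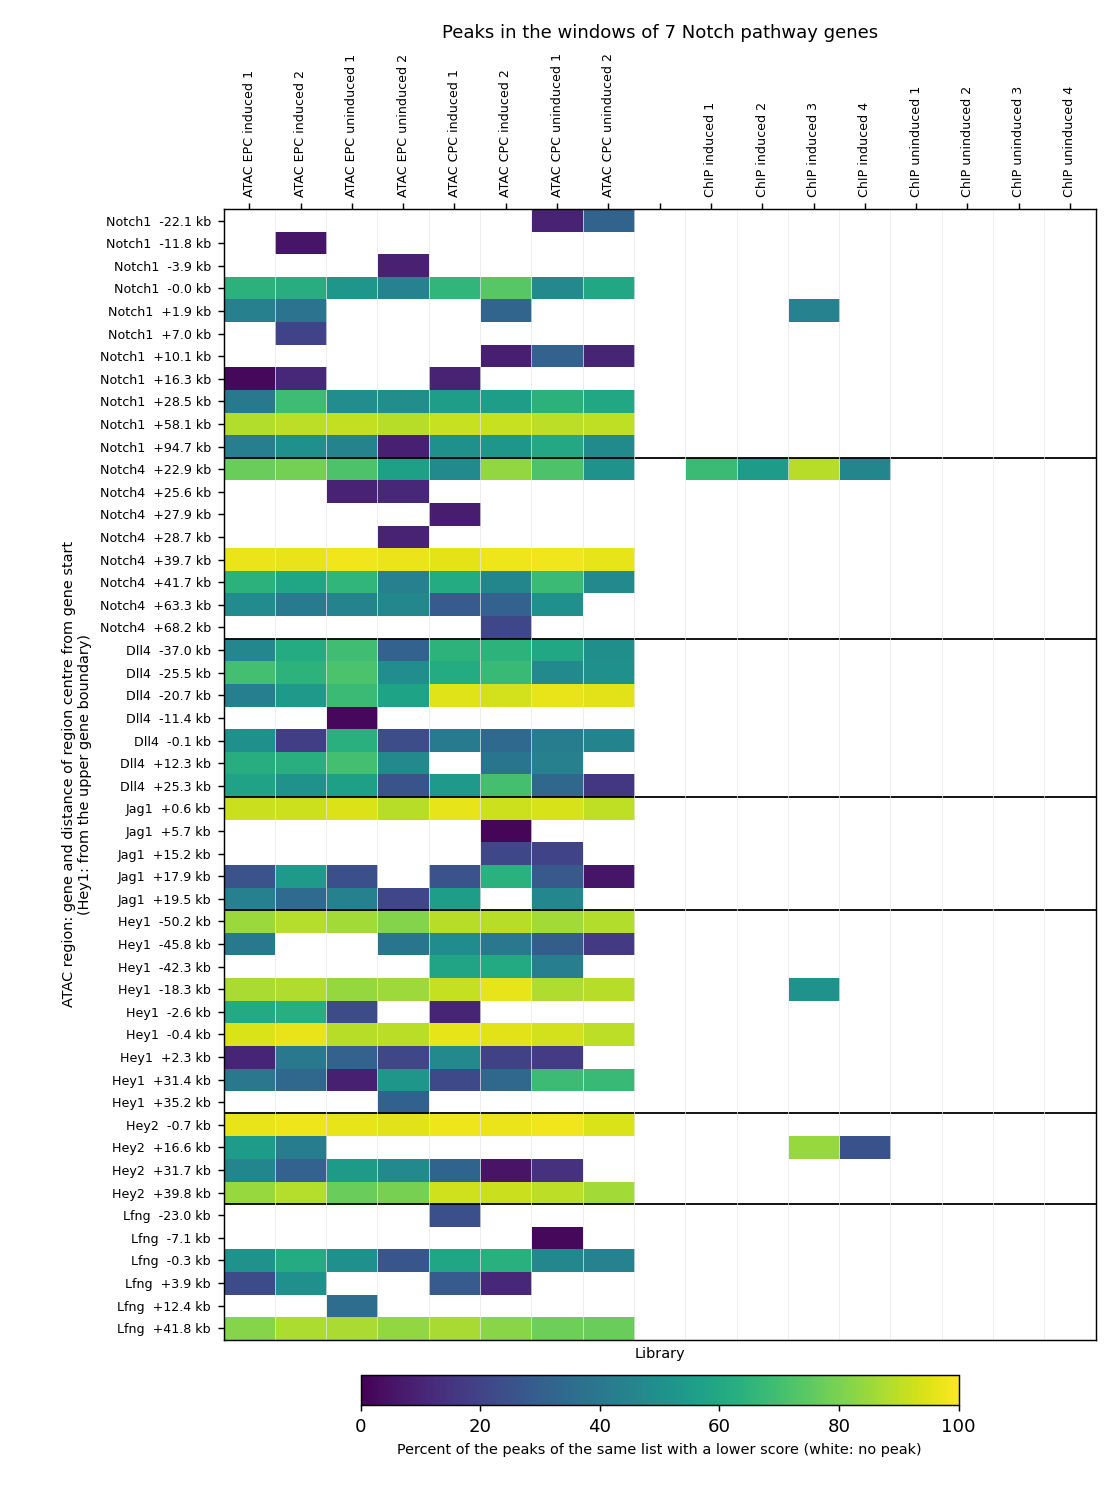
Each row is an ATAC region in the window of the gene named at left, with the distance of its centre from the gene start in kb, and each column is a library, with ATAC on the left and anti-Myc ChIP peaks overlapping that region on the right. Colour gives the percent of peaks of the same list with a lower score, and white means no peak. ChIP peaks fall in 4 rows, all in induced libraries, and only the row inside Notch4 is filled in all 4.

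For each peak the authors' caller gave a score, which MACS 1.4 derives from the p-value of the peak so that stronger peaks score higher. Scores rise with depth, so they mainly describe each peak within its own list. Where scores of different lists are set against each other below, differences in depth can enter the comparison. A region was called gained on induction in a cell type if it had a peak in both induced and in neither uninduced library, and lost in the opposite case. In EPC, 4 of the 50 regions were gained (6.12% of all regions were called): both Notch1 regions described next, 1 near Hey2 and 1 in Lfng. In CPC 1 region was gained, that in Lfng (5.75% of all regions). Lost regions numbered 1 in EPC, near Notch4 (1.82% of all), and 1 in CPC, upstream of Notch1 (2.35%). By gene, 3 of the 7 members had an EPC-gained region, beside 21.9% of the 19564 genes with any region in the window. With so few members, these counts lie near the background, and they received no test. The description by gene follows.

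Notch1, the receptor on which much of arterial specification is known to depend, spans 45.921 kb on the minus strand (chr2:26457902-26503822), and 6 of the 11 regions in its window overlapped it. The region over its start (chr2:26503264-26504459) had a peak in all 8 libraries, with scores of 252 and 233 in induced EPC, 179.6 and 119 in uninduced EPC, 240.4 and 306 in induced CPC and 140.0 and 163 in uninduced CPC. The region centred 28.5 kb into the gene (chr2:26474581-26476003) also had one in all 8, with scores between 114 and 307. Notch1 was thus open at its start in both cell types before any induction.

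Inside Notch1, at 1.88 kb from the start (chr2:26501474-26502407), induced EPC had peaks with scores of 124 and 105, against none in uninduced EPC. In CPC this region had a peak in 1 of 2 induced libraries, with a score of 88.8, and in none of the uninduced ones. The region at 16.3 kb into the gene (chr2:26487157-26487907) had the same pattern at lower scores, 51.8 and 60.3 in induced EPC, against none in uninduced EPC, and in CPC 57.9 in 1 of 2 induced libraries and none in the uninduced ones. Both regions were present in 3 of 4 induced and 0 of 4 uninduced libraries. The first held when only peaks scoring 100 or more were used and when all lists were cut to equal length; the second was lost in both cases, as its peaks lay near the floor of the lists at 50.

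Other Notch1 regions went the other way. At 10.1 kb into the gene (chr2:26493304-26494236) a peak was present in 1 of 2 induced CPC libraries, with a score of 56.6, against both uninduced ones, with scores of 92.2 and 57.9, and in no EPC library. At 21.7 kb upstream (chr2:26525485-26526282) induced CPC had none, against scores of 58.4 and 84.0 in uninduced CPC, and this was the CPC loss; EPC had none in any library. That loss was not kept among peaks scoring 100 or more, nor with lists of equal length, where the region at 10.1 kb was called lost in CPC instead. Single peaks, each in 1 library, lay at 7.01 kb into the gene and 11.4 kb upstream in induced EPC replicate 2 (scores of 70.6 and 54.4) and 3.66 kb upstream in uninduced EPC replicate 2 (57.3).

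Anti-Myc ChIP had 1 peak in the Notch1 window, in induced replicate 3 (chr2:26501360-26502130, score 62.0), and none in the other 3 induced or in any uninduced library. Of this ChIP region, 657 bp or 85.2% lay on the EPC-gained region 1.88 kb into the gene. Replicate 3 had the longest ChIP list, with 2807 peaks, against 1061 to 1851 in the other induced lists, and whether list length bears on this single peak was not tested.

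Notch4, a receptor expressed mainly in endothelium, spans 24.258 kb on the plus strand (chr17:34564286-34588543). Of the 8 ATAC regions in its crowded window, which holds 9 other genes, only 1 overlapped it. That region (chr17:34586209-34588127), near the far end of the gene at 22.9 kb from the start, had a peak in all 8 libraries, with scores of 442 and 494 in induced EPC, 394 and 172 in uninduced EPC, 133 and 485 in induced CPC and 331 and 131 in uninduced CPC. Both induced EPC scores lay above both uninduced ones, also by rank in lists cut to equal length, where 71.4% and 72.3% of peaks scored lower in induced EPC, against 66.2% and 55.8% in uninduced EPC. Such a split by rank is frequent: 18.3% of the 12047 regions in all 8 shortened lists had it. In CPC the induced and uninduced values overlapped, as did EPC and CPC as a whole. So Notch4 had open chromatin inside its body in every library, while its promoter window, shown above, had none.

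The same stretch held the one ChIP region found in every induced library. Between chr17:34586275-34587419 the 4 induced libraries had scores of 92.3, 76.0, 261 and 71.1. The uninduced libraries and the input, which was also uninduced, had no peak. All 1145 bp of the ChIP region lay within the ATAC region. It was the only 1 of the 4 ChIP regions that met the rule for an induced site, a peak in at least 3 of 4 induced and in 0 uninduced libraries (5.17% of all ChIP regions). The ranks of its peaks within their lists were moderate: between 45.9% and 89.1% of the peaks in the same list scored lower. In the authors' deposited table of Sox7 regions, which has 666 entries, and in their deposited table of regions shared with Gata4, which has 117, this was the 1 entry in the 7 windows. Only 1 of its 4 peaks scored 100 or more, so a cut at that score removed the call, whereas equal list lengths kept it.

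Next to Notch4, at 0.936 kb beyond its end and inside the neighbouring gene Gpsm3 (chr17:34589479-34590313), induced EPC had no peak, against scores of 58.2 and 59.3 in uninduced EPC, and CPC had none. This was the EPC loss, close to the floor of the lists, and neither the cut at 100 nor equal list lengths kept it. The strongest peaks of the Notch4 window lay farther off, on Rnf5 and Agpat1 (chr17:34603021-34605016), with scores between 987 and 2671 in all 8 libraries.

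**Figure D3:**
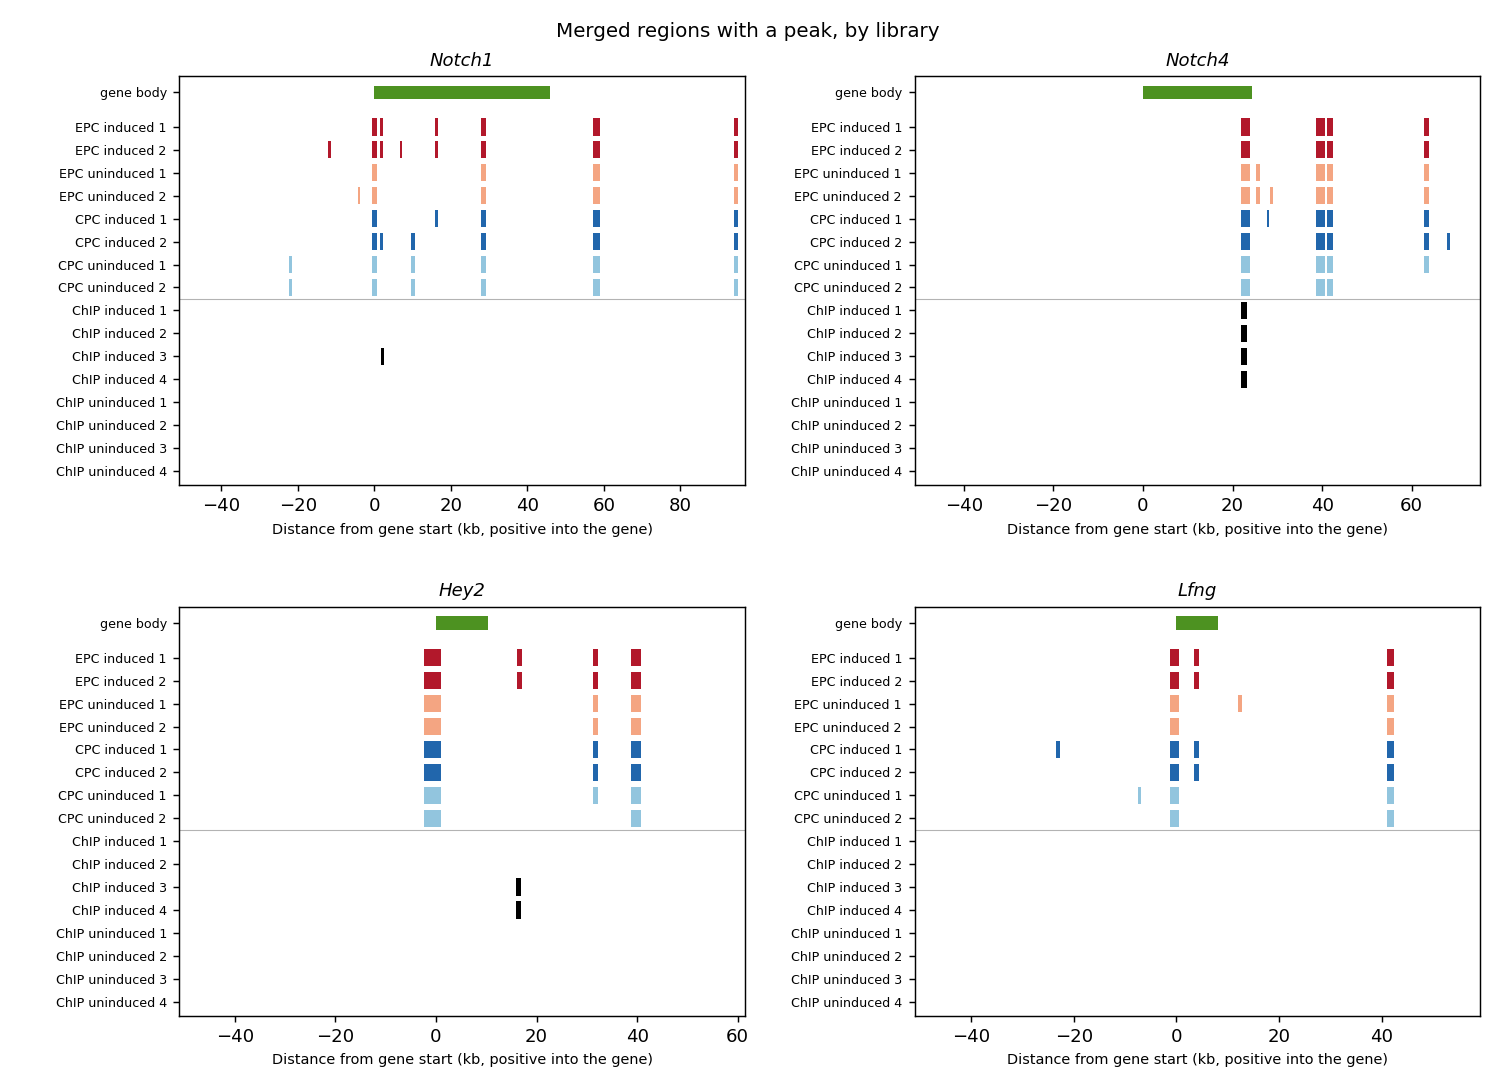
Regions with a peak in each library (rows, grouped by ATAC cell type and doxycycline and by anti-Myc ChIP) along the windows of Notch1, Notch4, Hey2 and Lfng, by distance from the gene start in kb; green bars are gene bodies. ChIP marks are black and occur in induced libraries only, on the region 22.9 kb into Notch4 in all 4 of them, and at Notch1 and Hey2 in 1 and 2.

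Dll4, the ligand by which tip cells and arteries are known to activate Notch, spans 9.883 kb on the plus strand (chr2:119325784-119335666), and no region of the 7 in its window met a rule for gain or loss when all peaks were used. Among peaks scoring 100 or more, 1 became a CPC gain, on the neighbouring gene Chac1 (chr2:119350431-119351691), with scores of 160 and 270 in induced CPC, against 97.3 and 63.3 in uninduced CPC. The region over its start (chr2:119325209-119326241) was modest in every library, with scores of 151 and 68.0 in induced EPC, 271 and 73.4 in uninduced EPC, 111 and 91.7 in induced CPC and 122 and 112 in uninduced CPC. No other region overlapped the gene. At 1.88 kb beyond its end (chr2:119337541-119338630) a peak was present in 4 of 4 EPC libraries, with scores of 233 and 239 after induction and 359 and 127 without it, and in 2 of 4 CPC libraries, with 102 in induced replicate 2 and 127 in uninduced replicate 1. EPC thus had this region in each library and CPC in only part of them, but not in none, which the rule for an EPC-only region required.

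Of the 19 regions in the windows with a peak in all 8 lists after these were cut to equal length, one upstream of Dll4 had the largest difference in rank between the cell types. This region, 20.0 kb upstream (chr2:119304318-119305755), which lies 5.87 kb from Vps18 and so nearer to that gene, was singled out after its values were seen. Its scores were 122 and 169 in induced EPC, 327 and 179 in uninduced EPC, 1266 and 894 in induced CPC and 1631 and 869 in uninduced CPC. All 4 EPC values lay below all 4 CPC values. Because lists differ in length, ranks were compared after each list had been cut to its 23068 best peaks: 28.5% to 61.2% of the peaks of a list scored lower than this one in EPC, with a median of 47.8%, against 91.6% to 96.1% in CPC, with a median of 94.6%. Of the 12047 regions in all 8 shortened lists, 0.249% had a median rank in EPC that was lower than in CPC by at least as much; in the full lists 0.641% of 13096 regions had, and the median rank in EPC minus that in CPC was −39.2 percentage points, against −46.8 in the shortened lists. Its peak was present in both states of doxycycline in each cell type. The difference was read from scores of the authors' caller and received no test.

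Jag1, a ligand of arterial endothelium and of smooth muscle, spans 35.07 kb on the minus strand (chr2:137081451-137116520), and all 5 regions of its window overlapped it. A region of 4481 bp over its start (chr2:137113689-137118169) was the widest of the 50 and had scores of 1101 and 1135 in induced EPC, 1660.2 and 654 in uninduced EPC, 1444 and 845 in induced CPC and 1177 and 566 in uninduced CPC. The groups overlapped. Deeper in the gene, the region at 19.5 kb (chr2:137096284-137097776) had a peak in 4 of 4 EPC and 2 of 4 CPC libraries, that at 17.9 kb in 3 of 4 EPC and 4 of 4 CPC libraries, and that at 15.2 kb in 0 of 4 EPC and 2 of 4 CPC libraries. None met a rule for gain or loss. No ChIP peak lay in the windows of Dll4, Jag1 or Lfng.

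Lfng, the fringe enzyme, spans 8.205 kb on the plus strand (chr5:140607341-140615545). Inside it, at 3.94 kb from the start (chr5:140610762-140611800), lay the 1 region of the windows that was gained in both cell types: induced EPC had scores of 75.0 and 149, against no peak in uninduced EPC, and induced CPC had scores of 82.9 and 59.1, against no peak in uninduced CPC. It was present in 4 of 4 induced and 0 of 4 uninduced libraries (1.16% of all regions). It was also the 1 entry of the 7 windows in the authors' deposited table of regions found only after doxycycline in CPC. In their deposited table for EPC it was 1 of 5 entries in the windows. The others overlapped both Notch1 regions gained in EPC, the EPC gain near Hey2, and the region over the Hey2 start, which here had a peak in all 8 libraries. With lists of equal length the EPC gain was kept and the CPC gain was not, and among peaks scoring 100 or more neither was. The region over the Lfng start (chr5:140606143-140607913) had a peak in all 8 libraries, with scores of 156 and 225 in induced EPC, 163 and 78.3 in uninduced EPC, 188 and 208 in induced CPC and 136 and 109.9 in uninduced CPC.

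Hey2, a repressor of the HES and HEY family that marks arterial cells in zebrafish and mouse, spans 10.425 kb on the minus strand (chr10:30832359-30842783). The region over its start (chr10:30841822-30845099) ranked above 94.5% to 97.3% of the peaks in lists cut to equal length, with scores of 1836 and 2179 in induced EPC, 2082 and 1139.9 in uninduced EPC, 1757 and 1433 in induced CPC and 1957 and 794 in uninduced CPC. At 5.69 kb beyond the end of the gene (chr10:30825619-30826672) induced EPC had scores of 178 and 117, against no peak in uninduced EPC, and CPC had none with or without doxycycline. This EPC gain was kept among peaks scoring 100 or more and with lists of equal length. The region thus had a peak in the 2 induced EPC libraries and in none of the other 6.

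ChIP had a region at the same place (chr10:30825803-30826859), with scores of 178 in induced replicate 3 and 51.4 in induced replicate 4 and no peak in the other 2 induced or in any uninduced library. It shared 870 bp, or 82.3% of its length, with the EPC-gained region. As it was found in 2 of 4 induced libraries, it did not meet the rule for an induced site.

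Hey1, the other HEY repressor, spans 3.68 kb (chr3:8663359-8667038); its strand was not used, so distances run from the gene boundaries. The region at its upper boundary (chr3:8666254-8668690) had a peak in all 8 libraries, with scores of 1391 and 1857 in induced EPC, 1039.9 and 679 in uninduced EPC, 1444 and 1179 in induced CPC and 1071 and 554 in uninduced CPC. A second region inside the gene (chr3:8664226-8665217) had one in 7 of 8, and was missing from uninduced CPC replicate 2, the shortest list. At 2.02 kb above the boundary and on the neighbouring gene LOC115489673 (chr3:8669055-8670223), induced EPC had scores of 222 and 236, against 75.0 in 1 of 2 uninduced EPC libraries, and induced CPC had 58.7 in 1 of 2 libraries, against none in uninduced CPC. A weak peak in uninduced EPC replicate 1 kept it from being called gained in EPC, and it was called once only peaks scoring 100 or more were used.

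Farther above Hey1, at 17.6 kb (chr3:8684648-8686024), a region had a peak in all 8 libraries, with scores of 771 and 822 in induced EPC, 735 and 532 in uninduced EPC, 864 and 1279.7 in induced CPC and 746 and 526 in uninduced CPC. ChIP had a region inside it (chr3:8684874-8685840), with a score of 67.7 in induced replicate 3 and no peak elsewhere. At 41.8 kb above the boundary (chr3:8708835-8709826) the peak was absent from all 4 EPC libraries and present in CPC with scores of 185 and 192 after induction and 124 in 1 of 2 uninduced libraries. Among peaks scoring 100 or more, 2 other regions met a rule. That at 45.3 kb above (chr3:8712302-8713324) was a CPC gain, with scores of 137 and 105 in induced CPC, against 86.8 and 63.7 in uninduced CPC. That at 27.1 kb below the gene (chr3:8635049-8636225) was a CPC loss, with 71.9 and 90.3 in induced CPC, against 289 and 209 in uninduced CPC.

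Set side by side, all 4 ChIP regions of the windows lay on ATAC regions, and they did so in different ways. Those at Notch4 and above Hey1 lay on regions with a peak in all 8 ATAC libraries, and those at Notch1 and Hey2 on regions gained in EPC. Over all 2992 ChIP regions with a peak in an induced library and none in an uninduced one, 54.3% overlapped an ATAC region, 13.6% one present in all 8 libraries, 13.9% one gained in EPC and 13.5% one gained in CPC. Of the 4 member regions, 2 fell in the second class, 2 in the third and 0 in the last. The share on any ATAC region differed with the number of induced libraries that held the ChIP region. It was 48.7% for 1 library, as at Notch1 and Hey1, 65.8% for 2, as at Hey2, and 89.8% for 3 or 4, as at Notch4. Outside Notch4, 3 of the 4 ChIP peaks came from induced replicate 3. With 4 regions, no more than this can be read from the comparison.

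The number of peaks per window was then compared between groups with exact two-sided permutation tests, run for every protein-coding gene. The smallest p was 0.333 for 2 against 2 libraries, 0.0556 for comparisons over all 8 ATAC libraries, in which labels were permuted within cell type or doxycycline state, and 0.0571 for ChIP. None of these can pass 0.05, and 0 genes of the genome did, either at an adjusted or at an unadjusted p. In EPC, Notch1 had 6 and 8 peaks in induced against 4 and 5 in uninduced libraries, or 7 ± 1.41 against 4.5 ± 0.707 on average (SD, n = 2 each; exact p = 0.333). Hey2 had 5 in each induced and 3 in each uninduced EPC library, and Jag1 had 4 in each induced and 3 in each uninduced one. Notch4 went the other way, with 4 in each induced and 5 and 6 in uninduced EPC libraries. These 4 genes were at the smallest p, 3 higher and 1 lower, as were 15.4% (higher) and 3.36% (lower) of all genes. The groups of these 4 genes did not overlap in EPC, whereas those of Dll4, Hey1 and Lfng did. A region can hold several peaks of a library, and counting merged regions, a comparison added after the data were seen, gave smaller differences for part of them. Hey2 then had 4 in each induced and 3 in each uninduced EPC library, and Jag1 had 3 and 3 in induced and 3 and 2 in uninduced ones, which overlap. Notch1 and Notch4 had as many regions as peaks in each EPC library. By regions, 2 members were thus higher and 1 lower at the smallest p, as were 15% (higher) and 3.05% (lower) of all genes. With all lists cut to equal length, the EPC differences of Hey2 and Jag1 were 1.5 and 1, still at the smallest p. Those of Notch1 and Notch4 shrank to 0.5 and −1 and were no longer there. The share of all genes at the smallest p was not counted for the shortened lists.

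In CPC the order of the genes was different. Notch4 had 5 peaks in each induced and 4 and 3 in uninduced CPC libraries, the 1 member at the smallest p there (15% of all genes, higher). No member was there in the other direction (3.7%). With lists of equal length the Notch4 difference fell from 1.5 to 1 and was no longer at the smallest p. Hey1 had 8 and 7 against 7 and 4, and Notch1 had 5 and 6 against 6 and 6. Over both cell types the differences of induced minus uninduced were 1.25 for Hey2 and 1 for Jag1 (exact p = 0.167 for each), 1 for Notch1 and Hey1, 0.5 for Lfng, 0 for Notch4 and −0.25 for Dll4. No member was at the smallest p over both cell types (3.81% of all genes higher, 0.184% lower). All adjusted p-values of the members were 1 in these comparisons. Uninduced CPC replicate 2, which had the shortest ATAC list, also had the fewest peaks in the windows, 25 against 31 to 36 in the other libraries.

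**Figure D4:**
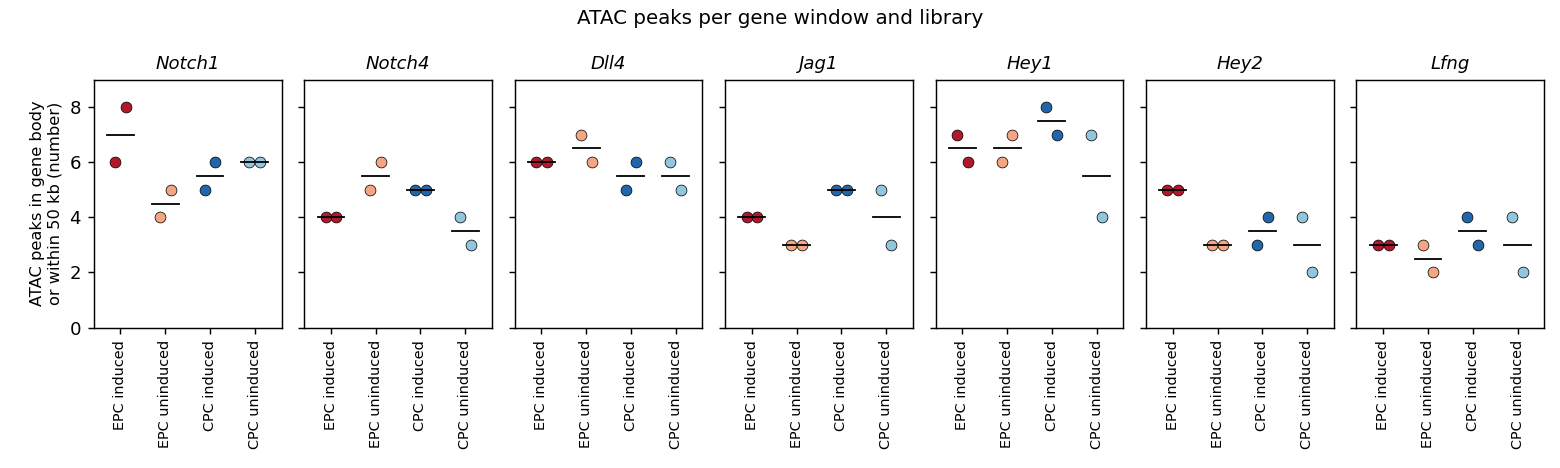
Number of ATAC peaks in the gene body or within 50 kb (y axis) for each of the 7 genes; points are libraries, 2 per group, and bars are group means, with induced left of uninduced and EPC left of CPC. In EPC the induced and uninduced points of Notch1, Notch4, Jag1 and Hey2 are apart, with Notch4 lower after induction and the other 3 higher.

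Between the cell types, no member passed the test on the number of peaks. Jag1 had 3.50 ± 0.577 peaks in EPC and 4.50 ± 1.00 in CPC (SD, n = 4 each; exact p = 0.167, adjusted p = 0.804), and Dll4 had 6.25 ± 0.500 in EPC and 5.50 ± 0.577 in CPC (exact p = 0.333, adjusted p = 1). With labels permuted over all 8 libraries regardless of doxycycline, the smallest p was 0.0286, and the lowest of any member was an exact p of 0.229. By that test 5.06% of 19564 genes were under 0.05 unadjusted and 0 after adjustment. With labels permuted within doxycycline state, no member was at the smallest p here either (5.11% of all genes higher, 2.2% lower). No region of the 50 was EPC-only, with a peak in 4 EPC and 0 CPC libraries (2.1% of all regions), and none was CPC-only (1.8%). Of the marker lists, an EPC-only region lay in the window of 5 of 10 endothelial genes (Cdh5, Erg, Fli1, Egfl7 and Robo4) and 6 of 8 blood genes. It lay in that of 1 of 9 arterial genes, Efnb2, beside 8.48% of all genes. A CPC-only region lay in the window of 0 of 10 endothelial, 1 of 8 blood and 2 of 9 arterial genes (Cxcr4 and Epas1). It also lay in that of 1 of 8 cardiac genes, Hand2. Of all genes, 5.61% had one. The difference between the members and these lists was not tested.

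Ranks within lists of equal length gave a finer view of the regions shared by all 8 libraries. Of 19 such member regions, 4 had all EPC ranks below all CPC ranks (7.01% of all regions) and 0 had them all above (7.16%). In the shortened lists the 4 were the region upstream of Dll4, that 17.6 kb above Hey1, that on Ncoa7 beyond Hey2 (chr10:30802012-30803952) and that on Inpp5e and Sec16a beyond Notch1 (chr2:26408584-26409756). Apart from the region upstream of Dll4, their median rank in EPC minus that in CPC was −14.4 to −4.80 percentage points. All 4 lay outside the member genes and nearer to another gene. In the full lists 2 of 21 regions had all EPC ranks below all CPC ranks (6.05% of all regions), those upstream of Dll4 and above Hey1, while the ranks of the other pair overlapped. At the starts of Notch1, Jag1, Hey2 and Lfng and at the upper boundary of Hey1 the ranks of EPC and CPC overlapped. On induction, 5 of the 19 regions had both induced EPC ranks above both uninduced ones (18.3% of all regions) and 3 had them below (21.5%). In CPC these numbers were 7 (20.1%) and 3 (19.7%). The region at the upper boundary of Hey1 and that on Ncoa7 were higher after induction in both cell types, and the region upstream of Dll4 was lower in both. The share of all regions that went the same way in both cell types was not counted, so these have no background beside them.

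**Figure D5:**
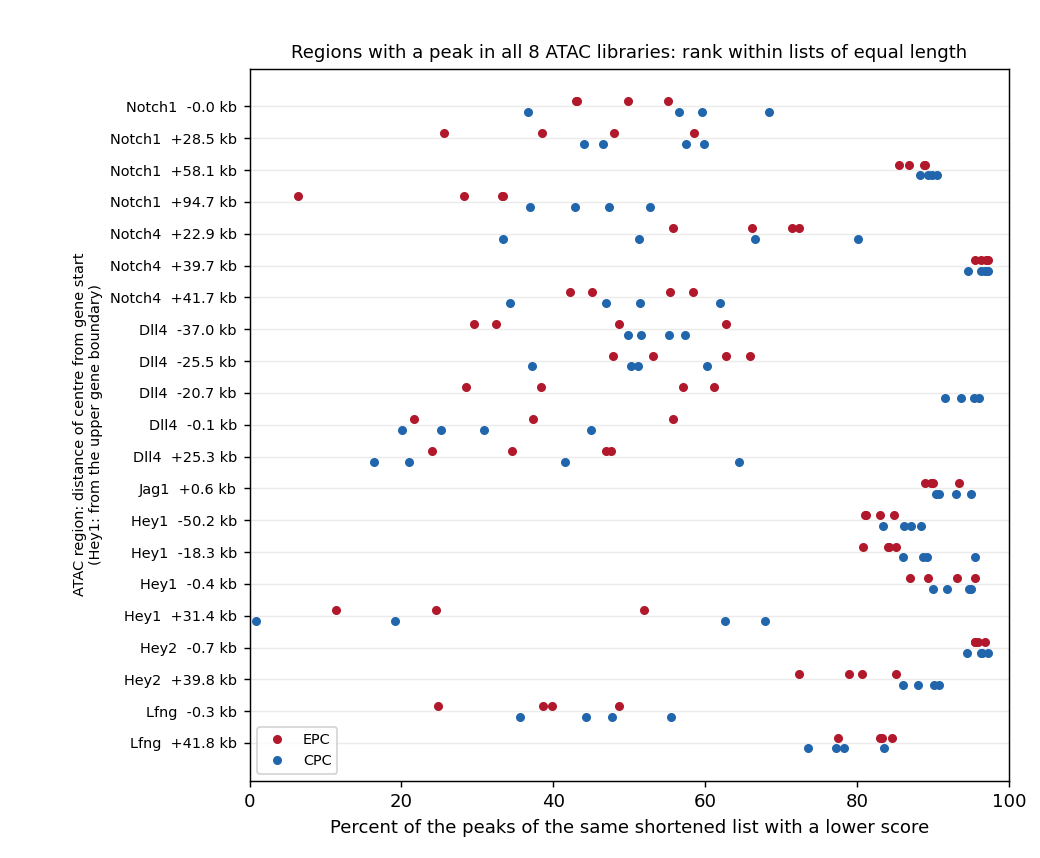
Rank of each region with a peak in all 8 ATAC libraries, as the percent of peaks of the same list with a lower score, after all lists were cut to 23068 peaks (x axis); rows are regions by gene and distance from its start, red points are the 4 EPC and blue points the 4 CPC libraries. The region centred 20.7 kb before the Dll4 start, the one with its nearest edge 20.0 kb upstream, lies at 28.5% to 61.2% in EPC and 91.6% to 96.1% in CPC; 2 regions lack a point for 1 EPC library, whose shortened list did not hold the peak.

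Anti-Myc ChIP counts followed from the regions above. Notch4 had 1 peak in each of 4 induced and 0 in each of 3 uninduced libraries, which gave the smallest p of this design (exact p = 0.0571, adjusted p = 1; 2.51% of the 5663 genes with a ChIP region were there in this direction and 0.0177% in the other). Hey2 averaged 0.500 ± 0.577 peaks over the 4 induced and 0 over the 3 uninduced libraries, with an exact p of 0.571. Notch1 and Hey1 averaged 0.250 ± 0.500 each after induction and 0 without it.

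A list of 30 other Notch pathway genes, which holds the remaining receptors and ligands, RBPJ and its coactivators, the HES factors, the secretase subunits and regulators such as Numb, gave counts that can be set beside those of the members. In EPC the number of peaks was higher in induced libraries for 19 and lower for 6, with a median difference of 0.5, against 0.5 for the members and 0.5 for all genes. In CPC it was higher for 17 and lower for 8, with medians of 0.5 for the list, 0.5 for the members and 0 for all genes. Over both cell types it was higher for 21 and lower for 4, with medians of 0.75 for the list, 1 for the members and 0.25 for all genes. None of the 30 passed the test, nor did any gene of the genome. An EPC-gained region lay in the window of 5 of the 30 (21.9% of all genes): Rbpj, the DNA-binding partner of the cleaved receptor, Hes5, a HES repressor, Psenen, a secretase subunit, Dtx1, a ubiquitin ligase of the pathway, and Pofut1, which fucosylates the receptors. A CPC-gained region lay in the windows of 4, the ligand gene Jag2, the coactivator gene Maml3 and the secretase genes Psen2 and Ncstn (20.7% of all genes), and none of the 30 had a region gained in both cell types (4.27%). Regions lost in EPC lay in the windows of 5, Maml1, Maml3, Numbl, Dlk1 and Pofut1 (7.91%), and regions lost in CPC in those of 3, Jag2, Maml3 and Ncstn (9.35%). An induced ChIP site lay in the windows of 2 of the 15 with a ChIP region, Hes7, an oscillating repressor of somite formation, and Ncstn (7.26% of genes with a ChIP region). EPC-only regions lay in the windows of 2, the coactivator genes Maml1 and Maml2 (8.48%), and CPC-only regions in those of 2, Notch3 and Nrarp, a feedback inhibitor (5.61%).

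Between cell types, 17 of the 30 had more peaks in EPC than in CPC and 5 had fewer, with a median difference of 0.25, as for all genes, and of 0 for the members. The counts describe the list and were not tested against the genome.

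The genes whose peak number was most like that of a member over the 8 ATAC libraries, by Pearson's r, were sought for members whose number varied by 3 or more. For Notch4 they were its neighbour Gpsm3 and Vps29, both at 1.00, followed by Rad9b at 0.974. For Hey2 they were Hes5 at 0.959, Sorcs3 at 0.958 and the neighbour Ncoa7 at 0.954, for Notch1 Cdcp1 and Tmem158 at 0.954 and Hrob at 0.937, and for Hey1 the neighbour LOC115489673 at 0.978 and Map3k3 at 0.958. Neighbours share regions with the member, all genes share the same 8 lists and their lengths, and small whole numbers make such values high. Dll4, Jag1 and Lfng varied by 2 peaks and were not matched.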

How the data were processed

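ATAC-seq, anti-Myc ChIP-seq and input peak lists were used, 1 per library; RNA-seq, 4 samples given doxycycline for 12 h or none, was not used here. The submitters' processing notes name GRCm38 (mm10) and, with no role given, MACS 1.4, Bowtie2, SAMtools, bedtools and Trimmomatic. Each peak has a score, deposited by the authors as the caller wrote it; the deposited positions are other columns of the same lists. No file gave read counts, so depth is unknown. Groups followed the sample characteristics, although the growth protocol names another sort (PDGFRα+FLK1−).

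Peaks of an assay that overlapped by 1 bp or more were merged into regions, and presence was called per library (Python 3.11.15, pandas 2.3.3, numpy 2.4.6). Gene bodies and promoters came from RefSeq tables of GRCm38.p6. All 7 members and all 30 other Notch genes matched by symbol. Exact permutation tests on the number of peaks per window were run for every gene, adjusted by the Benjamini-Hochberg method over genes with a peak, and checked on simulated data. The labels do not state whether replicates come from separate cultures; the p-values therefore reflect only the spread among these libraries, possibly technical.

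The members, gene lists and rules were chosen with earlier results of these data known. The regions named were all those meeting a presence rule, those in all 8 ATAC libraries inside or within 1 kb of a member, and all ChIP regions; the others named were picked after their values were seen. Cell type marker lists for venous, paraxial mesoderm, pluripotency, neural and endoderm genes were also counted: an EPC-only region lay in the window of 0 of 5 venous, 1 of 6 paraxial mesoderm, 0 of 4 pluripotency, 1 of 4 neural and 0 of 4 endoderm genes, and of 0 of 8 cardiac genes. Of all genes with a region in the window, 8.48% had one. A CPC-only region lay in the window of 1 of 5 venous genes, Nrp2, beside 5.61% of all genes. None lay in that of a paraxial mesoderm, pluripotency, neural or endoderm gene of the lists. Alternatives were a window of 10 kb, the gene body alone, a score of 100 or more, lists cut to equal length, a minimum share of the region covered by peaks, labels permuted over all 8 libraries, merged regions instead of peaks (added after the data were seen), and leaving out each library.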

Additional observations from a re-analysis of the deposited data

Results flagged for a closer look

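In the 4 induced anti-Myc ChIP libraries, 8 groups of values over the members were examined for a library far from the rest. Among continuous values chance alone marks about 1 in 20 such groups; a count of 1 in a single library and 0 in the others is always marked, so both counts below say only which library had the peak. In the Notch1 window, induced replicate 3 had 1 peak and the other 3 induced libraries had 0. In the Hey1 window the same replicate had 1 peak and the other 3 had 0. In the region inside Notch4, induced replicate 3 had a score of 261, against 92.3, 76.0 and 71.1 in the other induced libraries. Replicate 3 also had the longest ChIP list, with 2807 peaks; the part of list length in these values was not tested.

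In the Notch4 window, induction went with fewer ATAC peaks in EPC and more in CPC in every library: 4 and 4 in induced against 5 and 6 in uninduced EPC libraries, and 5 and 5 in induced against 4 and 3 in uninduced CPC libraries. The effect in EPC minus that in CPC was −3 peaks, and this difference was not tested. With all lists cut to equal length, the Notch4 difference was −1 in EPC and 1 in CPC, and neither was at the smallest p. How many other genes went in opposite directions in this way was not counted. The regions that vary in this window lie beyond the end of Notch4, on neighbouring genes.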

How the results depend on the processing

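Of 78 recomputed counts of called regions, 58 stayed within 1.5 times of the reported one and 20 did not. Of 371 recomputed differences for single members, 256 kept their direction, 20 came to 0 and 5 turned; the other 90 had a reported difference of 0. Counts of members past the test say nothing about stability where the smallest p is above 0.05. Regions lost in CPC numbered 0 within 10 kb and in the gene body alone. Regions lost in EPC numbered 0 in the gene body alone, at a score of 100 or more and with equal list lengths. Regions gained in CPC numbered 2 at a score of 100 or more (5.87% of all regions), both others than the reported one (near Dll4 and Hey1), and 0 with equal list lengths (4.65%). Regions lost in CPC numbered 1 in both of these settings (2.04% and 3.72% of all regions), but another one each time. Induced ChIP sites numbered 0 at a score of 100 or more (3.33% of all ChIP regions). They numbered 2 when a peak in 2 of 4 induced libraries was enough (14.4%), the second at Hey2. For these the cause was not tested. Leaving out 1 library loosens the rule to the rest, for all regions as for the members. Regions gained in CPC then numbered 1 to 5 (5 without uninduced replicate 1 or induced replicate 2, 4 without induced replicate 1), beside 7.23% to 12.6% of all regions. Those lost in CPC numbered 1 to 2 (2 without uninduced or induced replicate 2), beside 3.7% to 8.85%. Those gained in EPC numbered 4 to 6, beside 7.6% to 13.8%. Those lost in EPC numbered 1 to 4 (4 without uninduced replicate 1, 3 without uninduced replicate 2), beside 3.19% to 7.87%. CPC-only regions numbered 0 to 1 (1 without uninduced CPC replicate 2 or induced CPC replicate 1), beside 1.93% to 2.52%. Induced ChIP sites numbered 1 to 2 (2 without induced replicate 1 or 2), beside 5.17% to 12.7% of all ChIP regions. Directions turned for Notch1 in CPC (0.5 within 10 kb), Notch1 over both cell types (−0.25 with equal list lengths) and Lfng in EPC against CPC (0.25 with equal list lengths), and, without uninduced CPC replicate 2, for Hey2 and Lfng in CPC (−0.5 each; over the libraries left out, −0.5 to 1.5).

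Replicate numbers were not taken to pair the samples, although the list names give same-numbered lists a common letter. In ChIP it is an experiment letter shared by induced and uninduced lists, and in ATAC a letter shared by every group. Deviations of same-numbered libraries correlated at −0.0243 to 0.0619 in ATAC and 0.00675 to 0.133 in ChIP, where 2 of 4 pairs were above 0.1. With the replicate number as a block, 0 members passed in each comparison, as without it; the smallest p is then 0.5 within a cell type and 0.125 otherwise. Depth is unknown, and scores near the floor of 50 in ATAC and 40 in ChIP lists cannot separate a closed site from a shallow library. Uninduced ChIP list 4 was an exception among the ChIP lists, with a lowest score of 50.07, so weaker peaks could not appear in it.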
